A study of Mus musculus with 4 samples.

Results

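The immediate-early genes of the AP-1 group were followed as 8 named genes, Fos, Fosb, Jun, Junb, Jund, Egr1, Ier2 and Atf3, among the 49671 genes of 4 single-cell tables from mouse olfactory epithelium. They are a list of names, with no threshold on a value, and all 8 were found in every table. Animals were of the outbred CD-1 strain, with no genetic change in the labels, and were taken on the day of birth (P0) or on postnatal day 3 (P3), 7 (P7) or 21 (P21). Each age is represented by 1 library. Per the labels, tissue was dissociated with papain and sorted samples were loaded on a droplet instrument that counts transcripts from their 3' ends by unique molecular identifiers (UMIs). The gate of the sort, the number and sex of the animals, whether animals were pooled, and the time between dissection and lysis are unknown from the labels. Age and library therefore cannot be told apart, and no difference between ages has a replicate.

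AP-1 is a pair of leucine-zipper proteins, usually 1 of the Jun family with 1 of the Fos family, that binds a short palindromic DNA site. Cell stimulation switches Fos, Fosb, Egr1 and Ier2 on within minutes without new protein synthesis, through serum response factor and CREB, while Jun is driven largely by Jun and ATF2 acting on its own promoter and Jund is kept at a steady level in most cells. In neurons these genes are read as signs of electrical activity, and in dissociated tissue the same genes are known to respond to warm enzyme digestion. Olfactory sensory neurons (OSNs) arise from basal cells through dividing precursors and an immature stage to the mature, odour-sensing stage.

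The sequences below show the regulatory letters that Fos and Jun, the partners that name AP-1, carry just before their start sites, because their levels ran apart along the neuronal lineage in the results that follow. They are RefSeq reference sequence in build GRCm38.p6, written 5' to 3' on the strand of the gene, with matches in capitals. The Fos stretch (chr12:85473812-85473841, plus strand) holds a cAMP response element core, TGACGT, that starts 66 bases before the start site.
Fos: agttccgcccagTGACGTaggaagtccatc
The Jun stretch (chr4:95052248-95052398, minus strand) holds TTACCTCA, the distal Jun site, at 164 bases and TGACATCA, the proximal Jun site, at 45 bases before the start site.
Jun: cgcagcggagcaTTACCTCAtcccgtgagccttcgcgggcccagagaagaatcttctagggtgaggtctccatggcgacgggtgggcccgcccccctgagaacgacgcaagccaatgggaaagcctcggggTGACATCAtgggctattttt
Of 32851 promoter windows of 250 bases searched on both strands, 6.47% held TGACGT, 6.75% the AP-1 site TGANTCA, 2.93% TGACATCA, 0.728% TTACCTCA and 1.47% the core of the serum response element. The search used the 6 members with a window of their own, and neither Ier2 nor Egr1 was among them. Fosb, Junb and Jund had none of these letters in the window, and Atf3 held TGACGT once. These matches describe sequence and are not evidence of binding.

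Fos lies on chromosome 12 at 85473890 to 85477273 (plus strand), Fosb on chromosome 7 at 19302696 to 19310051 (minus strand) and Atf3 on chromosome 1 at 191170296 to 191218039 (minus strand), in GRCm38 coordinates of the GENCODE annotation. Jun, a gene of 1 exon, lies on chromosome 4 at 95049034 to 95052222 (minus strand). Jund (70698949 to 70700616, plus strand), Ier2 (84661331 to 84662852, minus strand) and Junb (84974484 to 84978718, minus strand) lie on chromosome 8. Whether reads were counted by strand is not stated in the labels, so reads of an overlapping gene on the other strand cannot be told apart from those of the member. Such overlaps exist for Jun (Junos), Junb (Prdx2), Jund (Gm11175) and Atf3 (Gm24748). Prdx2, a peroxide-removing enzyme, stood at 330.5 to 3436 CPM in the neuronal classes, where Junb had 3.07 to 17.0 CPM. Junos stood at 13.6 to 30.0 CPM in the class where Jun was highest.

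After filtering, the libraries held 2691, 3220, 1785 and 1413 cells in order of age, with totals of 9192869, 17770838, 8650272 and 6844712 UMIs. Cells were placed in classes by UMIs of marker genes, none of them a member: markers that include Neurog1 and Neurod1 for precursors, Gap43 for immature OSNs, Omp for mature OSNs, Krt5, Krt14 or Krt15 for horizontal basal cells, collagens, Dcn and Lum for stromal cells. The precursor gate held 79 to 680 cells per library, the immature OSN gate 125 to 690, the mature OSN gate 340 to 849 and the horizontal basal gate 68 to 173. The stromal gate held 192, 487, 152 and 12 cells, so its P21 sum was not used, and the secretory gate held 10, 1, 1 and 2 cells and was not compared. Of the markers kept back to check the gates, 4 of 5 precursor, 4 of 5 immature, 5 of 5 mature, 4 of 4 horizontal basal and 3 of 5 stromal markers were highest in their own gate. The 5 secretory markers could not be checked, since that gate had no sum of at least 20 cells. The exceptions were Tex15 for precursors (highest in sustentacular cells), Dbn1 for immature OSNs (in precursors), and Postn and Sparc for stromal cells (in ensheathing glia). Although the library names speak of OSNs, all 4 held leukocytes, stromal and horizontal basal cells. The P0 and P3 libraries shared 68 cell barcodes, of which 40 fell in the same class, and other pairs shared 1 to 9. Leaving such cells out ended 1 call between gates, given with Jun below.

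Levels are a gene's UMIs for every 1000000 UMIs of a class (CPM), with exact Poisson intervals at 95% that cover counting error only. They are not scaled by gene length, since a 3' tag is counted once per transcript. Summed over the 8 members, the libraries held 11049, 12987, 9013 and 6515 UMIs in order of age. Jund gave 64.1, 55.0, 55.6 and 52.6% of them in that order, so most of the group's signal came from the member known for steady expression. Fos, Fosb, Egr1 and Atf3, the members most often used as signs of acute stimulation, each stood at 5.70 CPM or less over all kept cells of every library.

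**Figure D1:**
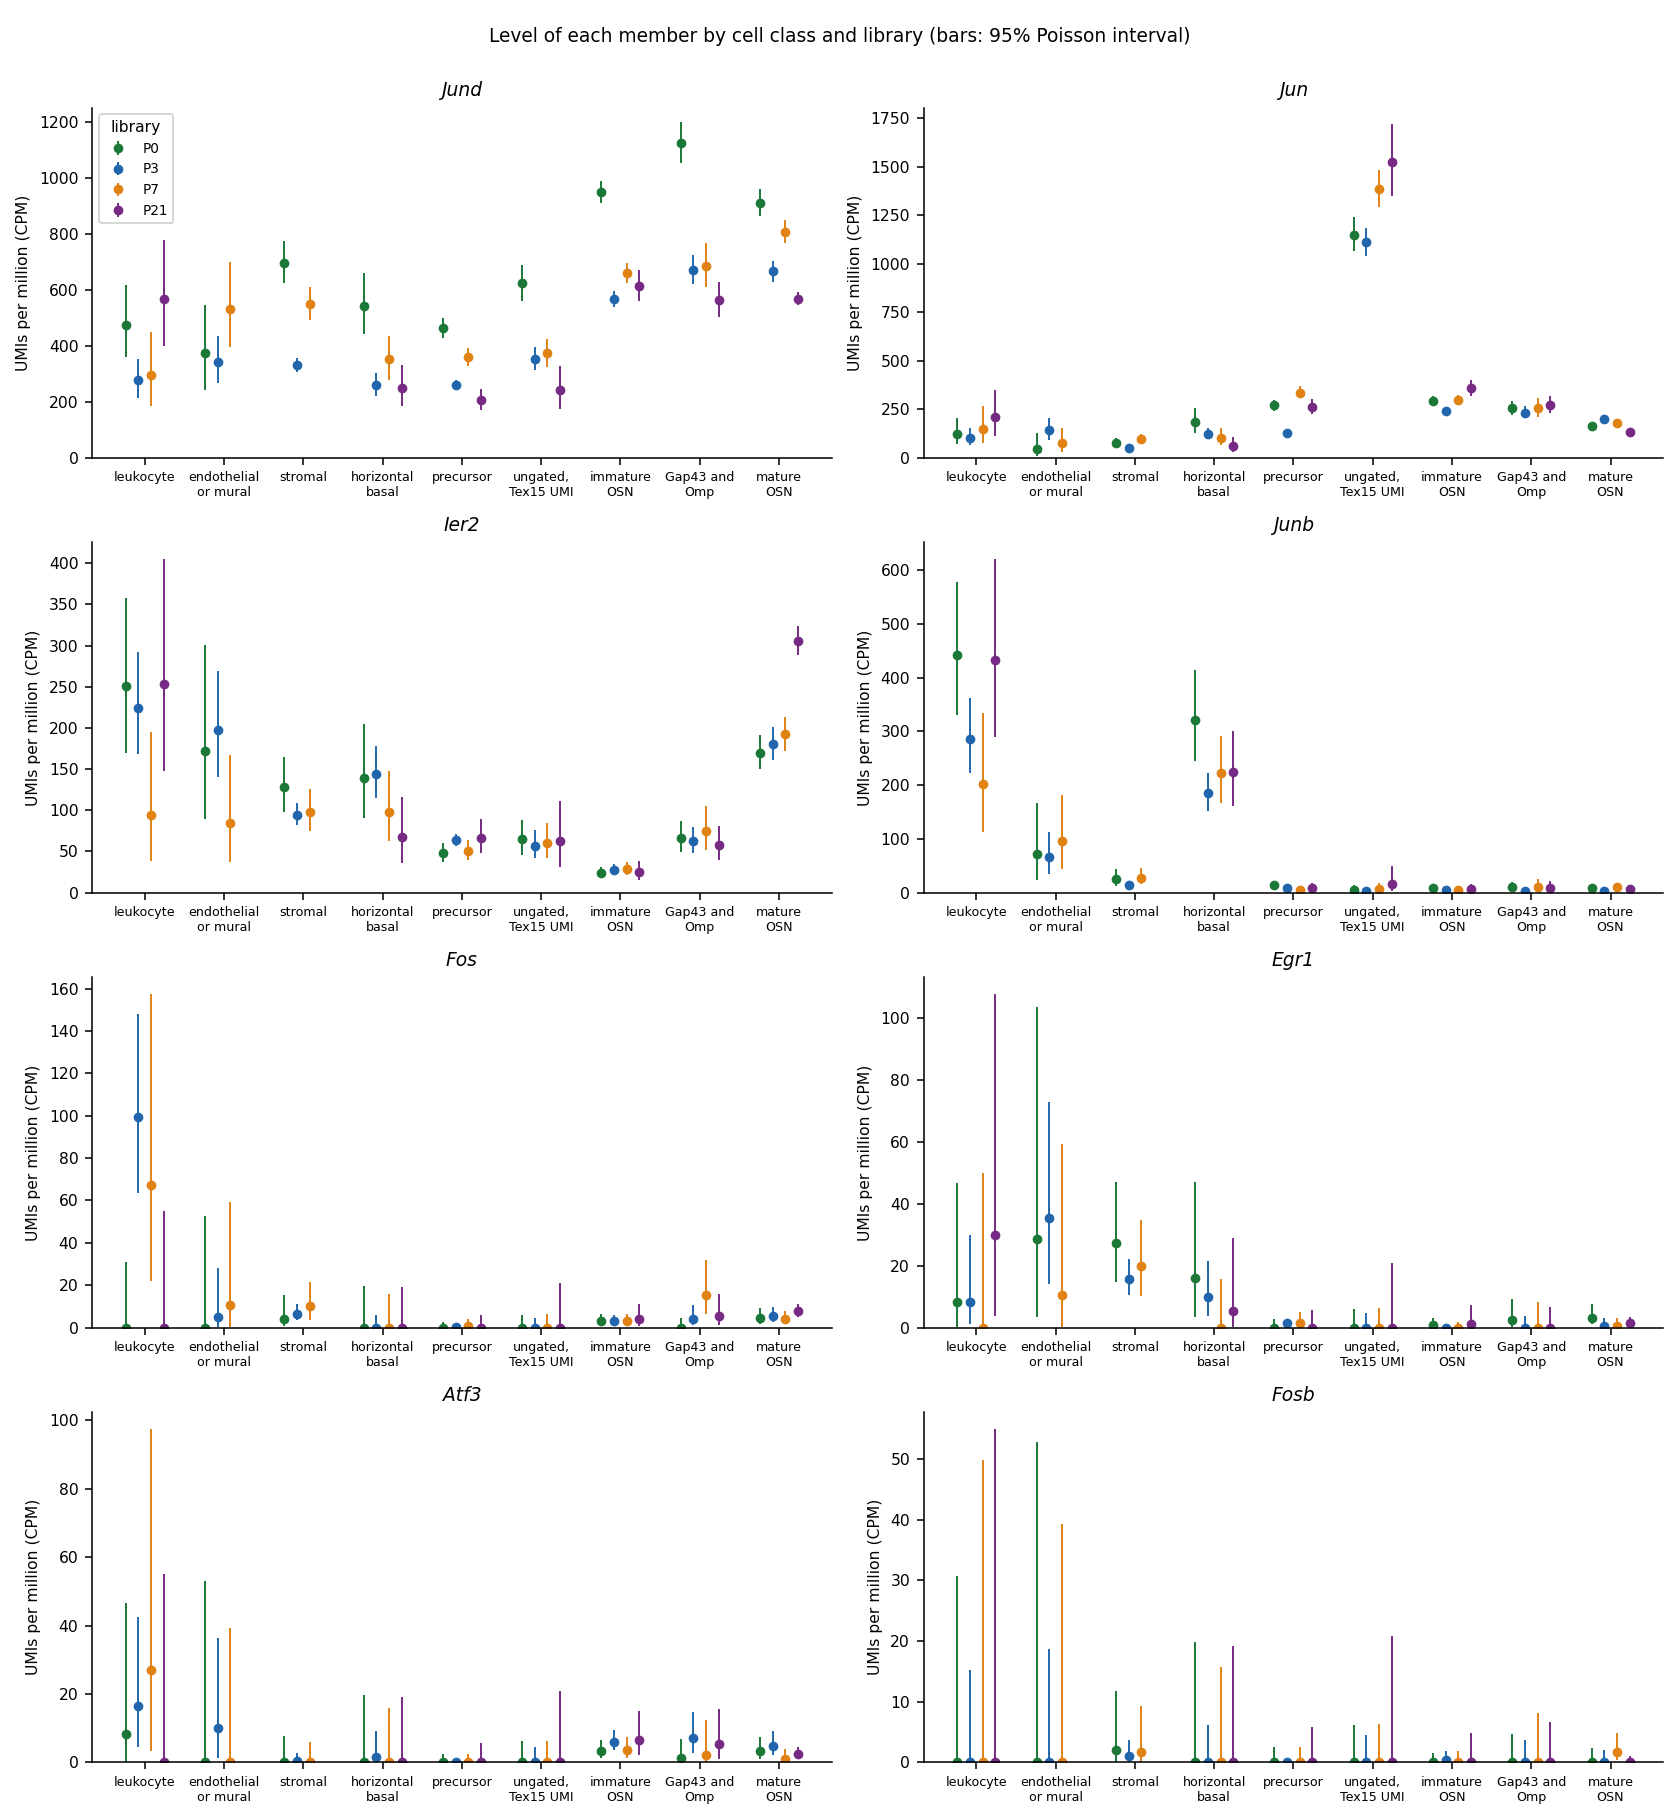
Level of each of the 8 members (vertical axis, CPM, linear from 0) by cell class (horizontal axis), 1 point per library coloured by age, with 95% Poisson intervals. Jund was present in every class, Jun peaked in ungated cells with a Tex15 UMI at 1110.4 to 1527 CPM, Junb was high in leukocytes and horizontal basal cells, and Fosb stayed at or below 2.11 CPM.

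Jund, the Jun family member with the weakest growth-promoting activity, was the most abundant member in OSNs. In precursors it had 464, 262, 359 and 206 CPM at P0, P3, P7 and P21, in immature OSNs 949.6, 567, 660.3 and 612.5 CPM, and in mature OSNs 911, 666, 808 and 568 CPM. The P0 library was the highest in all 3 classes, and in every library the precursor value lay below both OSN values. Horizontal basal cells had 542, 258, 351 and 249.8 CPM and stromal cells 696, 331 and 549 CPM at P0, P3 and P7. Against the mature OSN gate, Jund was lower in precursors (log2 fold change -1.30 ± 0.14, SE; edgeR adjusted p = 1.14e-09), in horizontal basal cells (-1.35 ± 0.16, 1.01e-08) and in stromal cells (-0.77 ± 0.15, 6.92e-05). The stromal call was lost without the library as a block (adjusted p = 0.0585). Immature OSNs differed by -0.27 ± 0.13, which did not pass (edgeR adjusted p = 0.118), and did pass with median-of-ratios size factors (0.0488), with DESeq2 (0.0480) and in a fit of those gates alone (0.0274).

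Jun, the founding AP-1 protein and a target of JNK kinases, differed in level between the neuronal stages. Precursors had 270.1, 129, 337 and 263 CPM at P0, P3, P7 and P21, immature OSNs 295, 241, 299 and 359 CPM, and mature OSNs 164, 198, 177 and 133 CPM. Immature values exceeded mature ones in every library, whereas the precursor value at P3 lay below the mature one. Jun was higher in immature than in mature OSNs by a log2 fold change of 0.64 ± 0.18 (edgeR adjusted p = 0.00445), but at a stricter Gap43 gate the difference was 0.10 and did not pass (adjusted p = 0.727). In precursors the difference of 0.41 ± 0.18 was just past the threshold of 0.05 (edgeR adjusted p = 0.0480). It was lost with other size factors (adjusted p = 0.278), in DESeq2 (0.388), without the block (0.0756), with the stricter gate (0.131), without shared barcodes (0.121), and without the P0 (0.194), P7 (0.496) or P21 library (0.373).

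Tex15, one of the check markers of precursors, was highest in sustentacular cells among the gates. Cells that passed no gate but carried a UMI of Tex15 were looked at after the levels had been seen, so their values are given without a test. They numbered 219, 174, 131 and 30 at P0, P3, P7 and P21 and had 1151, 1110.4, 1387 and 1527 CPM of Jun. No gate with at least 20 cells passed 381 CPM in any library. After thinning each cell to 1500 UMIs, 73.9, 79.2, 84.0 and 86.2% of them had a Jun UMI, against 17.5, 25.1, 23.8 and 15% of mature OSNs thinned alike. A single such cell held up to 11, 16, 18 and 36 Jun UMIs in the 4 libraries. These cells had 1398 to 2420 CPM of Sox11, 1016 to 1439 CPM of Gng8 and 1821 to 2570 CPM of Lhx2, with 5.20 to 16.7 CPM of Neurod1 and 275 to 333 CPM of Gap43. Neurod1 and Gap43 are gate markers, and cells above their gates' minimum had been taken out of this class.

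The same held inside the gates. Precursor gate cells with a Tex15 UMI had 505, 357, 752 and 643 CPM of Jun, against 229, 97.3, 241 and 181.5 CPM in precursor gate cells without one. Immature gate cells with a Tex15 UMI had 935, 855 and 1058 CPM at P0, P3 and P7 (P21 had 3 such cells), against 226, 202 and 246 CPM in those without one. The values with a Tex15 UMI were higher in each of these pairs, whichever gate the cells came from. At 1500 UMIs a cell, 71.0, 67.7 and 72.0% of the immature gate cells with a Tex15 UMI had a Jun UMI, against 24.6, 24.4 and 25.8% of those without one. Dusp1, a phosphatase that ends MAP kinase signalling, stood at 325, 218, 284 and 288 CPM in the ungated Tex15 cells, against 75.4, 65.3, 65.3 and 126 CPM in mature OSNs. Fos, Fosb, Atf3 and Egr1 had no UMI in the ungated Tex15 cells, which allows up to 5.0, 3.70, 5.20 and 17.0 CPM at P0, P3, P7 and P21.

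**Figure D2:**
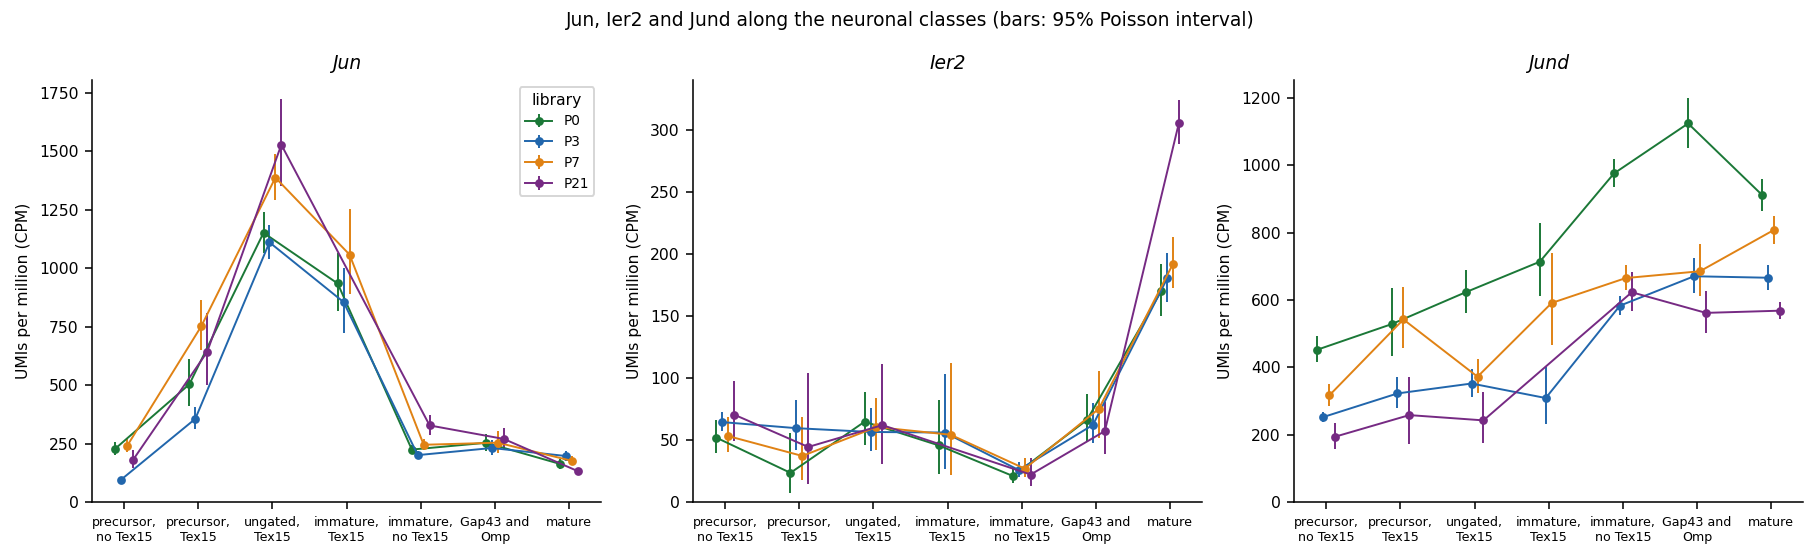
Levels of Jun, Ier2 and Jund (vertical axes, CPM from 0) along 7 neuronal classes (horizontal axis, precursors at the left and mature OSNs at the right), 1 line per library with 95% Poisson intervals. Jun peaks in the classes with a Tex15 UMI, Ier2 is lowest in immature OSNs without one and highest in mature OSNs, and Jund is higher in mature OSNs than in precursors of either kind in every library.

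Outside the neuronal lineage, Jun was lower than in mature OSNs in both gates tested, horizontal basal and stromal. Horizontal basal cells had 182, 123, 103 and 62.5 CPM at P0, P3, P7 and P21, below the mature values of 3 libraries but above that of P0. The log2 fold change over mature OSNs was -0.69 ± 0.24 (edgeR adjusted p = 0.0161), and the call was lost with other size factors (0.0812), without P7 (0.0681) and at the stricter gate (0.270). Stromal cells had 73.8, 51.6 and 96.2 CPM, below mature OSNs of every library, with a log2 fold change of -1.38 ± 0.24 (edgeR adjusted p = 1.0e-05). Other non-neuronal classes were not tested and were not all low: the 28 ensheathing glia of P3 had 381 CPM, above mature OSNs, and sustentacular cells had 155 and 197 CPM at P0 and P7.

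Junb, the Jun family member that restrains proliferation and is prominent in skin and blood cells, was nearly absent from neurons and high in horizontal basal cells. Horizontal basal cells had 322, 186, 223 and 224 CPM at P0, P3, P7 and P21, against 9.02, 3.78, 11.0 and 6.68 CPM in mature OSNs. The groups did not overlap, and the log2 fold change was 4.75 ± 0.23 (edgeR adjusted p = 1.17e-17), the smallest p of any member in the 4 comparisons. After thinning to 1500 UMIs, 33.9, 23.5, 23.1 and 24.1% of horizontal basal cells had a Junb UMI, against 0.906, 0.299, 1.70 and 1.39% of mature OSNs. Before thinning, the median depth was 2308 to 3276 UMIs in horizontal basal cells and 4023 to 4945 UMIs in mature OSNs. Stromal cells had 25.3, 13.5 and 28.2 CPM, a log2 fold change of 1.36 ± 0.32 over mature OSNs (edgeR adjusted p = 0.000467). Precursors (0.25 ± 0.29, adjusted p = 0.467) and immature OSNs (-0.35 ± 0.31, 0.397) did not differ from mature OSNs beyond their error. Leukocytes had 442, 286, 202 and 432 CPM of Junb, above horizontal basal cells in every library but P7. Ptprc, which all leukocytes carry, had no UMI in the horizontal basal gate of any library. Ptprc is a marker of the leukocyte gate, and cells that passed both gates had been left out. Its absence is therefore partly built in, and free RNA was not tested.

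Fos, the partner of Jun in AP-1, was scarce. Mature OSNs had 4.51, 5.40, 3.84 and 7.75 CPM at P0, P3, P7 and P21, from 7, 10, 7 and 29 UMIs, and immature OSNs had 3.26, 3.02, 3.05 and 3.88 CPM. The intervals of all these values overlap, and the fitted difference between immature and mature OSNs was -0.89 ± 0.66 on the log2 scale (edgeR adjusted p = 0.306). The 1349 precursors held 2 Fos UMIs, a ratio of 0.0398 to mature OSNs over the summed libraries (95% interval 0.00470 to 0.151), and the fitted difference passed (edgeR adjusted p = 0.000299). The 387 horizontal basal cells held 0 Fos UMIs, at least 2.40-fold lower than mature OSNs when 3 UMIs over the group are taken as the floor (edgeR adjusted p = 0.0123). Stromal cells had 4.22, 6.52 and 9.95 CPM, a log2 difference of 0.04 ± 0.83 from mature OSNs (adjusted p = 0.990).

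Among classes of at least 20 cells, Fos was highest in leukocytes of the P3 and P7 libraries. They had 0, 99.4, 67.5 and 0 CPM at P0, P3, P7 and P21, the non-zero values coming from 24 UMIs in 8 of 68 cells and 5 UMIs in 4 of 25 cells. A count of 0 allows up to 25 CPM at P0 and 44.7 CPM at P21, so the P3 value lay above what either zero allows. Fosb, the Fos relative whose short form builds up with repeated stimulation in brain, had 1, 3, 4 and 2 UMIs in all kept cells of the 4 libraries, too few for any comparison.

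Atf3, a stress-induced partner of Jun and a marker of injured neurons, had 3.26, 6.04, 3.56 and 6.47 CPM in immature OSNs at P0, P3, P7 and P21, against 3.22, 4.86, 1.10 and 2.41 CPM in mature OSNs. Their intervals overlap and the fitted difference did not pass (log2 0.58 ± 0.57, edgeR adjusted p = 0.447). Precursors held 0 Atf3 UMIs in 1349 cells, at least 7.91-fold lower than mature OSNs (edgeR adjusted p = 3.38e-05). Stromal cells held 1 UMI, a ratio of 0.106 to mature OSNs (95% interval 0.00254 to 0.684; edgeR adjusted p = 0.00852), and horizontal basal cells also held 1 UMI, a difference that did not pass (adjusted p = 0.10). Leukocytes had 8.35, 16.6, 27.0 and 0 CPM.

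Egr1, a zinc-finger factor induced beside Fos but not part of the AP-1 dimer, was found mainly outside the neuronal lineage. Stromal cells had 27.4, 15.5 and 19.9 CPM at P0, P3 and P7, against 3.22, 0.540 and 0.549 CPM in mature OSNs of the same libraries. The groups did not overlap, and the log2 fold change was 3.80 ± 0.76 (edgeR adjusted p = 7.50e-05). Horizontal basal cells had 16.1, 9.94, 0 and 5.20 CPM, overlapping mature OSNs because of the P7 library. Their log2 fold change of 2.22 ± 0.85 passed (edgeR adjusted p = 0.0276), but not without P0 (2.49, adjusted p = 0.0510) or without P3 (1.64, 0.223). In no neuronal class did Egr1 exceed 3.22 CPM.

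Ier2, a nuclear protein of the immediate-early response outside the leucine-zipper family, had its lowest neuronal levels in immature OSNs and its highest in mature OSNs. It had 47.9, 64.0, 50.4 and 66.1 CPM in precursors at P0, P3, P7 and P21, 23.7, 27.9, 29.0 and 24.6 CPM in immature OSNs, 66.4, 62.4, 75.4 and 57.4 CPM in cells positive for both Gap43 and Omp, and 170.0, 180.3, 192 and 306 CPM in mature OSNs. The 4 classes did not overlap except for precursors and double-positive cells. Ier2 was lower in immature than in mature OSNs by a log2 fold change of -3.14 ± 0.19 (edgeR adjusted p = 1.71e-14) and lower in precursors by -1.96 ± 0.18 (2.87e-11). Thinned to 1500 UMIs, 3.39, 4.11, 3.10 and 1.67% of immature OSNs had an Ier2 UMI, against 20.8, 20.4, 24.9 and 38.1% of mature OSNs. Horizontal basal cells (139, 144, 98.5 and 67.7 CPM) and stromal cells (129, 94.7 and 97.8 CPM) were also below mature OSNs of every library they share, by -1.05 ± 0.21 (edgeR adjusted p = 7.84e-05) and -1.10 ± 0.20 (2.29e-05). Leukocytes had 250.5, 224, 94.5 and 253 CPM, in the range of mature OSNs in all libraries but P7.

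**Figure D3:**
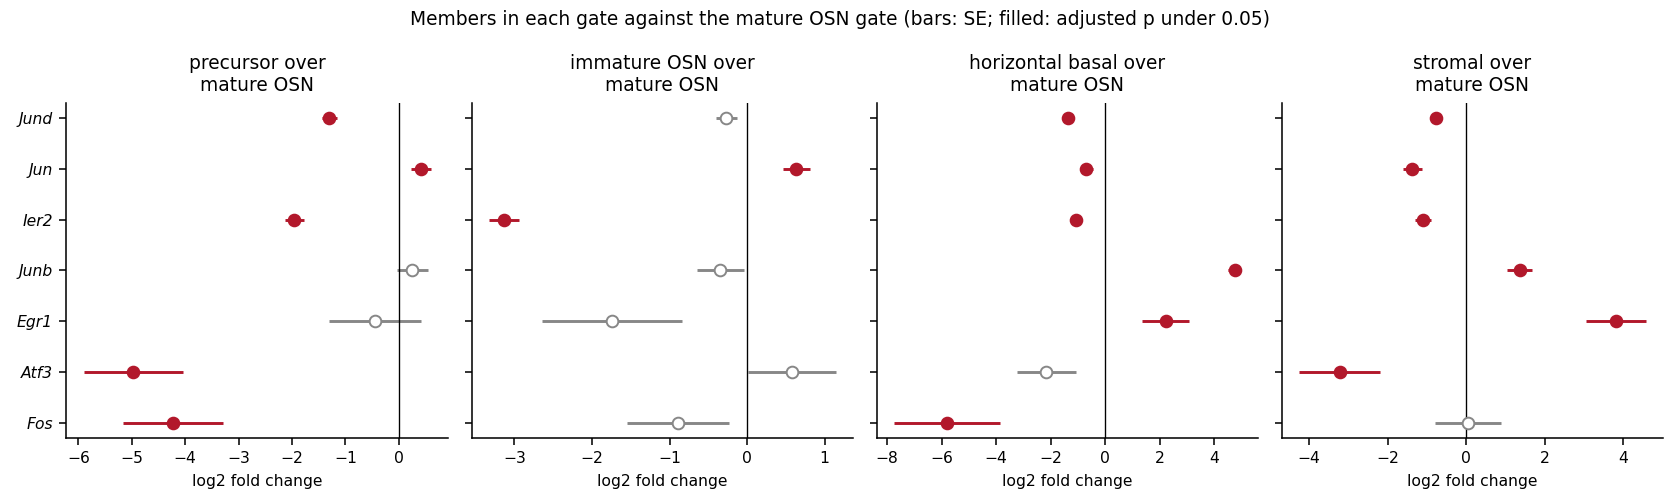
Fitted log2 fold change (horizontal axes) of the 7 members tested, in each of 4 gates over the mature OSN gate, with SE bars and filled points where the edgeR adjusted p was under 0.05. Junb in horizontal basal cells (4.75) and Ier2 in immature OSNs (-3.14) stand far from 0 with small errors. The points of Fos in horizontal basal cells and Atf3 in precursors come from sums with 0 UMIs, so they are no measure of size.

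Counted together, 5 of the 7 tested members differed between precursors and mature OSNs, 1 higher and 4 lower, where 62.9% of all 13915 genes tested did (31.5% higher, 31.5% lower). For immature OSNs it was 2 of 7, 1 higher and 1 lower, against 40.6% of all genes (19.9% higher, 20.8% lower). For horizontal basal cells it was 6 of 7, 2 higher and 4 lower, against 55.1% (26.5% higher, 28.6% lower), and for stromal cells 6 of 7, 2 higher and 4 lower, against 62.1% (32.2% higher, 30.0% lower). With 7 genes, these counts say nothing particular about the group. The members did not move as 1 block: in horizontal basal cells Junb and Egr1 were higher while Jund, Ier2, Jun and Fos were lower. Across the 33 sums of class and library, the correlation of log2(CPM + 10) between members ranged, as a description, between -0.60 for Jun with Egr1 and 0.66 for Fos with Atf3.

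The secretory gate was passed by 34, 32, 15 and 10 cells, whatever other gate they passed, and their identity could not be checked. Of these, 10, 1, 1 and 2 passed no other gate. They had 300.0, 184, 215 and 261 CPM of Junb, 257, 214, 256 and 229 CPM of Jun, and 150.0, 228, 133 and 490.2 CPM of Ier2 at P0, P3, P7 and P21. Junb was near the level of horizontal basal cells, but most of these cells passed another gate, and which one was not counted. Fos had 1 UMI in all 4 libraries together. These values were not compared by a test.

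Between the oldest and the youngest library, mature OSNs differed in Jund and Ier2. Intervals here cover counting error in 1 library per age. Jund had 568 CPM at P21, against 911 CPM at P0, a ratio of 0.624 (0.583 to 0.668). Ier2 had 306 CPM at P21, against 170.0 CPM at P0, a ratio of 1.80 (1.57 to 2.06). Those were the 2 of 5 counted members past 1.5-fold with an interval that leaves out 1, where 14.6% of 9936 genes were higher and 8.53% lower. With P3 or P7 in place of P0, 1 member passed. Jun was at 0.812 (0.697 to 0.948), a smaller difference, and Fos at 1.72 (0.737 to 4.65) could not be told from no change.

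Against P0, the lower Jund at P21 was seen in every class compared but leukocytes. The ratio was 0.444 in precursors, 0.390 in ungated cells with a Tex15 UMI, 0.645 in immature OSNs, 0.50 in double-positive cells and 0.461 in horizontal basal cells, each with an interval that lies below 1, and 1.19 (0.768 to 1.83) in leukocytes. It was the 1 member past 1.5-fold, lower, in each of the 4 neuronal classes other than mature OSNs. That rests on the P0 library: against P3 Jund passed in none of these 4, and against P7 in precursors (0.574) and ungated Tex15 cells (0.653). The background was 6.61% of genes higher and 5.94% lower in precursors, 4.08% and 5.3% in ungated Tex15 cells, 7.75% and 6.21% in immature OSNs, and 8.54% and 6.91% in double-positive cells. Over all kept cells, Jund stood at 770.5, 402, 579 and 501 CPM at P0, P3, P7 and P21, with the P0 library the highest. Against P3 the ratio of Jund was 0.853 in mature and 1.08 in immature OSNs, where the direction reversed. In precursors 1 member passed against P3, Jun, which was higher, where 410 of 10390 genes were higher and 406 lower.

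For Ier2, mature OSNs were the 1 neuronal class whose interval left out 1, and the differences between classes were not tested. Its P21 over P0 ratio was 1.04 (0.585 to 1.77) in immature OSNs, 0.865 (0.539 to 1.37) in double-positive cells and 1.38 (0.915 to 2.05) in precursors. In horizontal basal cells it was 0.485 (0.229 to 0.979), from 13 and 26 UMIs, and the interval held 1 when median-of-ratios scaling was used (0.543, 0.256 to 1.10). Horizontal basal cells had 3 of 4 counted members lower, Jund, Jun (0.342, 0.161 to 0.678) and Ier2, where 12.5% of 1874 genes were higher and 19.9% lower. Without cells whose barcode is shared it was 4 of 4, all lower, where 225 of 1784 genes were higher and 356 lower. Against P3 it was 2 of 4, Jun and Ier2, and against P7 it was 0 of 4. At the stricter gate it was 2 of 4, and with median-of-ratios scaling 2 of 4, where 314 genes were higher and 240 lower. All genes of that gate had a median log2 ratio of -0.169, against 0.0206 in mature OSNs. Jun ran the other way in ungated Tex15 cells (1.33, 1.15 to 1.53) and in immature OSNs (1.22, 1.05 to 1.40). In leukocytes 0 of 3 counted members passed, where 9.84% of genes were higher and 22.6% lower. Against P3, 2 of 5 passed, Jund higher (2.04, 1.33 to 3.08) and Fos lower (0 UMIs against 24), and against P7, 2 of 2 passed, Jund (1.91) and Junb (2.14), both higher.

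**Figure D4:**
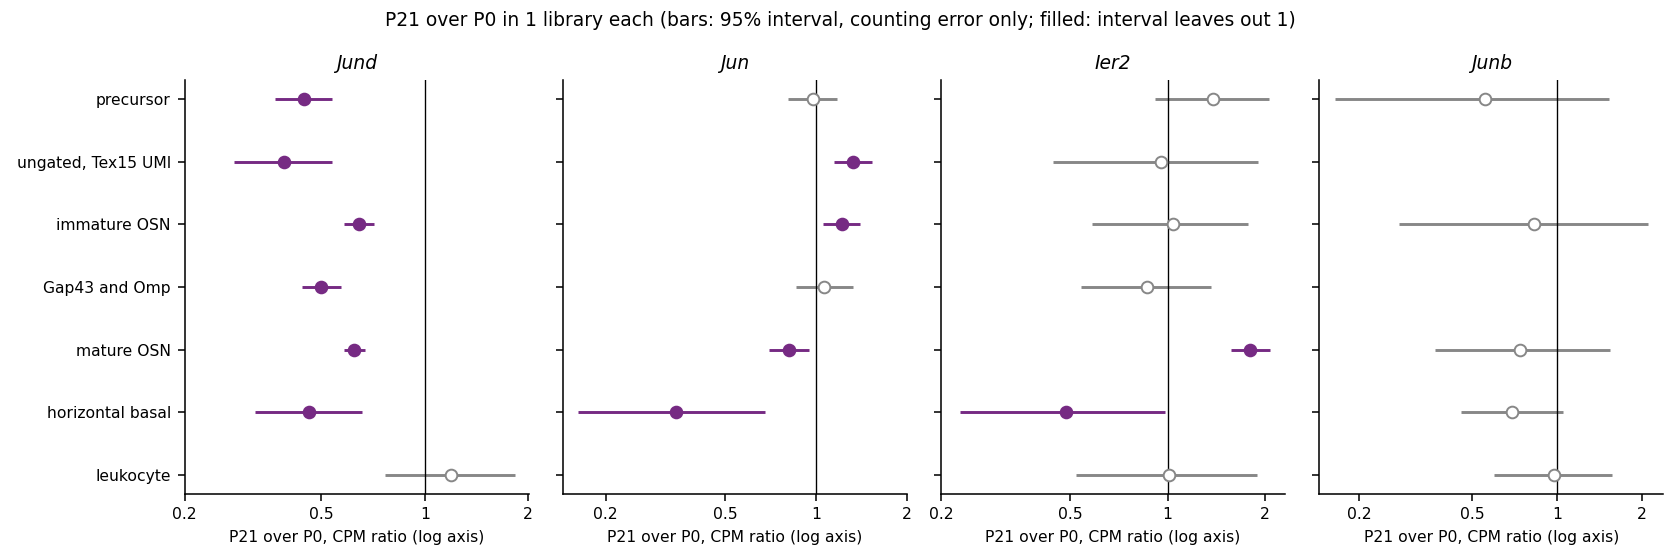
Ratio of CPM at P21 over P0 (horizontal axes, log scale) for Jund, Jun, Ier2 and Junb in 7 cell classes, 1 library per age, with 95% intervals of counting error and filled points where the interval leaves out 1. Jund lies below 1 in all classes but leukocytes, and Ier2 lies above 1 with an interval clear of it in mature OSNs (1.80) but below 1 in horizontal basal cells (0.485).

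Whether the members ran together in the same cells was examined within the mature OSN gate, in cells thinned to 1500 UMIs and split by a member's UMI. A Fos UMI was found in 0, 4, 1 and 6 cells, so no gene could be followed in all 4 libraries. edgeR called 3 of 5928 genes (0.0506%), DESeq2 called 0, and 587 had an unadjusted p under 0.05. The 3 were Olfr368, an odorant receptor, higher, and Nqo1, a quinone reductase of dorsal-zone OSNs, and Calb2, calretinin, lower. They are named although no gene could meet the rule of moving alike in all 4 libraries. The median log2 fold change of all genes in this fit was -1.37, so a lower value cannot be told apart from scaling. With median-of-ratios size factors 1 gene was called higher and 0 lower.

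The split by Ier2 was added after the data had been seen. An Ier2 UMI was found in 69, 68, 88 and 302 mature cells, against 262, 266, 265 and 491 cells without one. edgeR called 5 of 5438 genes lower in the Ier2 cells (0.0919%) and 0 higher, while DESeq2 and a fit without the block called 0. Nqo1 differed by -0.32 ± 0.06 on the log2 scale (edgeR adjusted p = 0.00806), Calb2 by -0.40 ± 0.08 (0.0112) and Ppa1, a pyrophosphatase, by -0.38 ± 0.08 (0.0120), and the others were Olfr1176, an odorant receptor, and Bglap3. Mature OSNs without an Nqo1 UMI had 169, 207, 212 and 338.5 CPM of Ier2 at P0, P3, P7 and P21, against 171, 165, 178 and 258 CPM in those with one. Only at P21 did the intervals part, at 314.7 to 363.7 against 233.2 to 284.8 CPM, and they cover counting error in 1 library. The Nqo1 split reads the Nqo1 call above the other way round, in cells of the same gate. It therefore adds no separate evidence. Jun (-0.40 ± 0.17, adjusted p = 0.971) and Jund (-0.11 ± 0.08, adjusted p = 1.0) were not called between cells with and without an Ier2 UMI in edgeR.

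Genes known to respond to tissue dissociation and genes known to follow neuronal activity were set beside the members, since the members are known from both settings. The 16 dissociation genes summed to 389 to 572 CPM in mature OSNs, 401 to 456 CPM in immature OSNs, 684 to 756 CPM in precursors, 811 to 1041 CPM in ungated Tex15 cells, 666 to 901 CPM in horizontal basal cells, 836 to 886 CPM in stromal cells and 1669 to 2029 CPM in leukocytes. Leukocytes had the highest of these sums. Against mature OSNs, 6 of the 16 were higher and 3 lower in precursors, 3 and 3 in immature OSNs, 10 and 4 in horizontal basal cells, and 12 and 3 in stromal cells. Of all genes, 62.9, 40.6, 55.1 and 62.1% were called in these 4 comparisons, in either direction. The list's median log2 fold changes were 0.39, 0.24, 1.57 and 2.24, beside 0.03, 0.01, -0.09 and 0.04 over all genes.

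Named members of that list show how unlike the classes were. Btg2, which restrains division, had 235, 314, 276 and 307 CPM in precursors, against 5.15, 12.4, 9.33 and 17.4 CPM in mature OSNs (log2 fold change 4.54 ± 0.20, edgeR adjusted p = 8.57e-19). Socs3, a brake on cytokine signalling, was higher in horizontal basal cells (log2 fold change 3.80 ± 0.38, edgeR adjusted p = 4.14e-10) and stromal cells (3.77 ± 0.35, 4.87e-11). Cyr61, a matrix-associated signal, had 118, 94.2 and 126 CPM in stromal cells at P0, P3 and P7, against 0.644, 0.540 and 1.10 CPM in mature OSNs. Zfp36, which destabilises cytokine messages, had 5.36, 8.28, 17.1 and 15.6 CPM in horizontal basal cells, against 0, 0, 0 and 0.267 CPM in mature OSNs. Beside the 10 higher in horizontal basal cells, 4 of the list were lower there than in mature OSNs. These were Ier5 (log2 fold change -1.29 ± 0.22), Dusp1 (-1.40 ± 0.26), Klf2 (-2.34 ± 0.70) and Rhob (-1.03 ± 0.32). In mature OSNs, Dusp1 (126 CPM) and the list sum (572 CPM) were highest in the P21 library, the one with the highest Ier2, and their part in that value was not tested. Of the heat shock genes, which respond to protein damage, the counts were 4 higher and 5 lower of 12 tested in precursors, 1 and 3 in immature OSNs, 4 and 6 in horizontal basal cells, 3 and 6 in stromal cells, beside the same shares of all genes. In mature OSNs their sum was 13950.5, 9120, 8934 and 12520 CPM at P0, P3, P7 and P21. Single genes went different ways there: Hspa1a, the inducible chaperone, had 15.5, 11.9, 11.5 and 6.15 CPM, and Hspa8, the constitutive one, 2141, 1962, 1792 and 2581 CPM.

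Several genes that follow activity in neurons at large were close to absent. Npas4 reached at most 1.41 CPM and Arc at most 2.22 CPM in any sum, Egr3 had no UMI in any of the sums of at least 20 cells, and Egr2 none in neurons. Nptx2, a pentraxin that gathers synaptic receptors, was well detected in mature OSNs, with 97.9, 129.5, 121 and 197 CPM, against 16.3, 24.2, 16.8 and 28.5 CPM in immature OSNs at P0, P3, P7 and P21 (log2 fold change of immature over mature -2.84 ± 0.17, edgeR adjusted p = 6.86e-14). Nr4a1, an orphan nuclear receptor, had 3.86, 3.78, 7.14 and 10.4 CPM in mature OSNs. Among the 4 mature OSN sums both were highest at P21, as was Ier2. Outside neurons Nr4a1 reached 63.4 CPM, in ensheathing glia of P3. The list as a whole had 4 higher and 4 lower of 11 tested in precursors, 1 and 5 in immature OSNs, 3 and 2 in horizontal basal cells, and 5 and 1 in stromal cells. Of all genes, 62.9, 40.6, 55.1 and 62.1% were called in these comparisons. In precursors its sum of 563 to 648 CPM was carried by Scg2, a granule protein, which was 4.88 ± 0.22 higher on the log2 scale than in mature OSNs (edgeR adjusted p = 6.33e-17).

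Of the genes tied to odour-driven activity in OSNs, 7 of 7 tested were lower than in mature OSNs in each of the 4 gates compared. The list mixes genes that rise with activity and genes that fall with it, so its counts and sum do not measure activity. Of all genes, 31.5, 20.8, 28.6 and 30.0% were lower in precursors, immature OSNs, horizontal basal cells and stromal cells. Classes that were not tested did not all follow: Kirrel3 (79.0 CPM) and Hist2h2be (639 CPM) had their highest values in double-positive cells at P21, and Sema7a (74.4 CPM) in endothelial or mural cells. S100a5, a calcium-binding protein used as an activity reporter in OSNs, had 10774, 12104, 12622 and 15687 CPM in mature OSNs. It had 81.0 to 507 CPM in leukocytes, a class that should lack it. At such a level, free RNA of this abundant gene, doublets and expression cannot be told apart. Ier2 was the 1 member called lower in immature than in mature OSNs, as were 20.8% of all genes. Among the other lists, 3 of 16 dissociation, 3 of 12 heat shock and 5 of 11 neuronal activity genes were lower there too. Whether dissociation, activity, stage or the sort lies behind the levels of any member was not tested, and with 1 library per age and no undissociated sample they cannot be told apart.

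**Figure D5:**
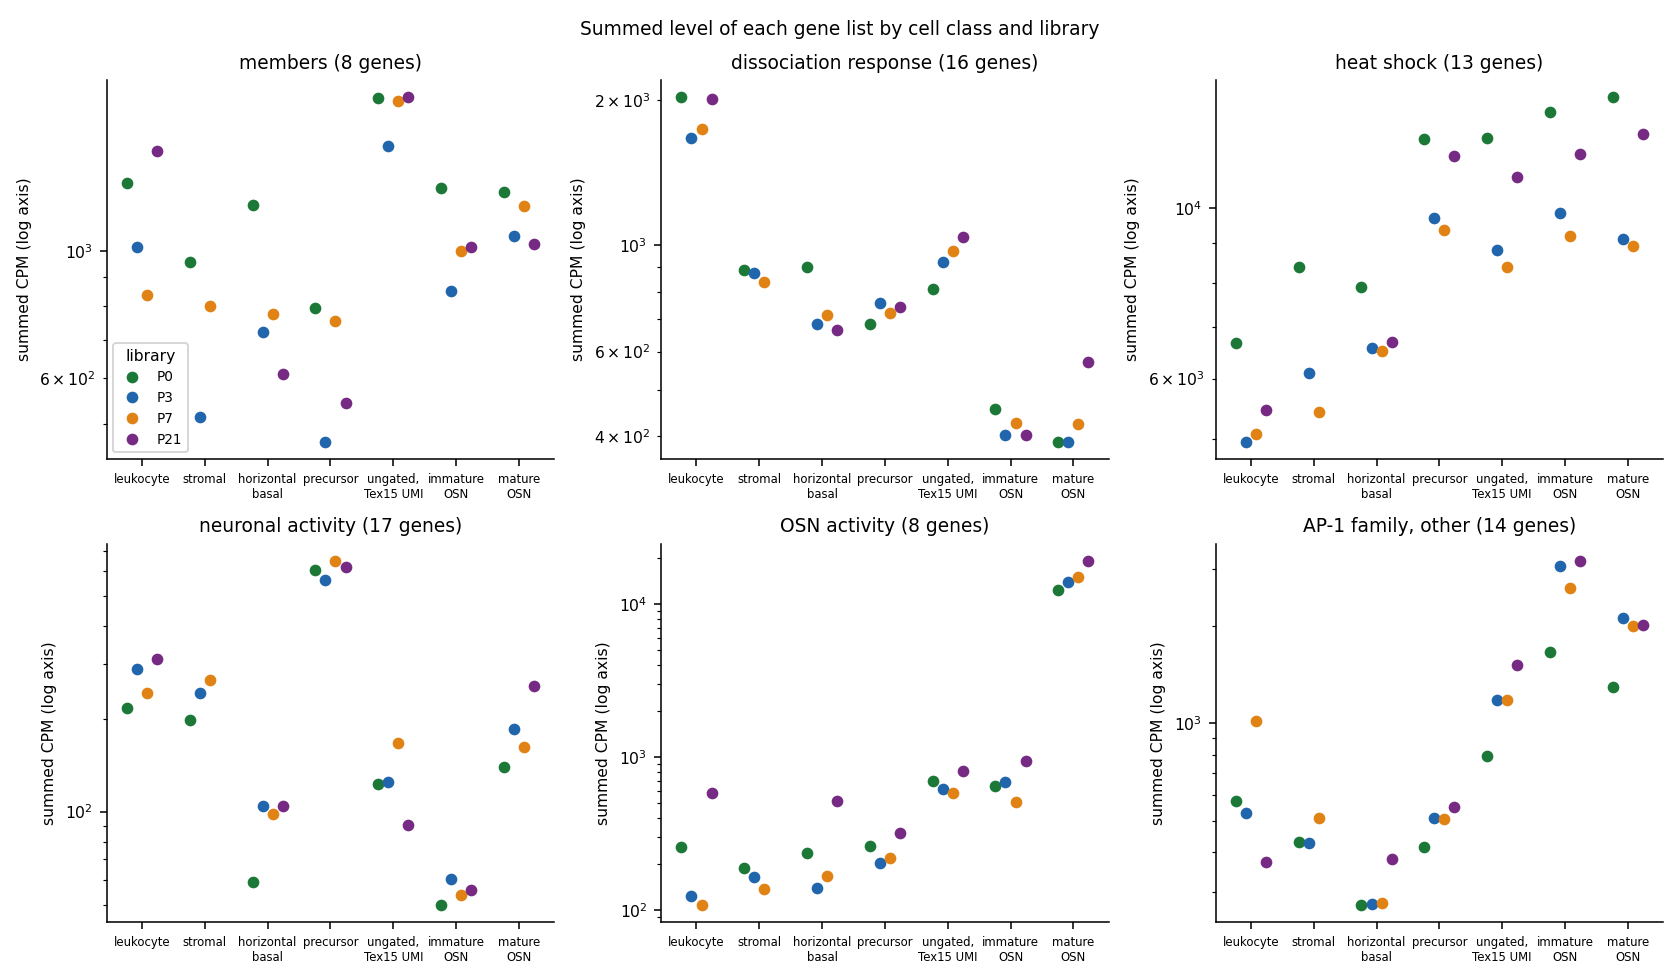
Summed CPM (vertical axes, log scale) of the members and of 5 gene lists in 7 cell classes (horizontal axis), 1 point per library coloured by age. The dissociation sum is highest in leukocytes (1669 to 2029 CPM) and the OSN activity sum in mature OSNs (12454 to 19172 CPM), while the members' sum peaks in ungated cells with a Tex15 UMI (1523 to 1850 CPM). The OSN activity list mixes genes that rise and genes that fall with activity.

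Other genes of the pathway were called no more often than genes at large in precursors and immature OSNs. Of the 14 remaining AP-1 relatives 10 were tested, with 1 higher and 4 lower in precursors, 3 and 0 in immature OSNs, 4 and 4 in horizontal basal cells, and 5 and 4 in stromal cells, beside 62.9, 40.6, 55.1 and 62.1% of all genes called in either direction. Atf5, a leucine-zipper factor required for OSN differentiation, had 235, 255, 262 and 334 CPM in precursors, against 1063, 1772, 1685 and 1663 CPM in mature OSNs (log2 fold change -2.60 ± 0.20, edgeR adjusted p = 6.29e-13). Fosl2, a Fos relative, had 10.7, 8.28, 21.4 and 15.6 CPM in horizontal basal cells, the gate with no Fos UMI, from 2, 5, 5 and 3 UMIs, against no UMI in mature OSNs. Of the 17 kinases and factors upstream, 1 was higher and 5 lower in precursors, 2 and 4 in immature OSNs, 5 and 5 in horizontal basal cells, and 5 and 4 in stromal cells, against the same shares of all genes. Mapk10, the neuronal JNK that phosphorylates Jun, was lower in precursors (-3.33 ± 0.17, edgeR adjusted p = 5.44e-15) and immature OSNs (-0.68 ± 0.13, 0.000174) than in mature OSNs, while Map2k1, the kinase above ERK, was higher in both (0.79 ± 0.15 in precursors and 1.31 ± 0.15 in immature OSNs).

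For each member with enough UMIs, the genes whose log2(CPM + 10) ran most like it over the 33 sums were listed as a description. Junb was closest to Anxa3 (Pearson r 0.95), Apoc1 (0.93) and Lpar6 (0.92), and Fos to I830127L07Rik (0.85), Atp6v0d2 (0.81) and Ctse (0.79). Jund ran with Ccdc107 (0.80), Jagn1 (0.77) and Ndufb8 (0.76), Egr1 with Tubb6 (0.84), Actn1 (0.82) and Mmd (0.82), and Atf3 with Ifi204 (0.81), Ms4a4b (0.80) and Plek (0.78). Ier2 had no close neighbour, the nearest being Srgap2 (0.76), Ppt1 (0.73) and Bst1 (0.70). Jun was closest to 1700037H04Rik (0.80), Crcp (0.77) and Amer2 (0.75), and with the 4 sums of ungated Tex15 cells added to Rlf (0.85), Gm20621 (0.85) and Gucy2c (0.83). The sums of a library share its depth and preparation, and no p was computed.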

How the data were processed

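Each deposited table holds raw UMI counts (genes by cells), whole and unscaled as the authors left them. Cell Ranger 2.1.1 and Seurat, and the build mm10, come from the submitters' processing notes, which give no roles. Cells with at least 500 genes, at most 10% mitochondrial and at most 10% haemoglobin UMIs were kept, which removed 12, 0, 2 and 3 cells from the libraries in order of age. No doublet caller was run. Instead, cells that passed gates of different lineages were left out, and an alternative removed the 2% of cells with most UMIs.

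A gate needed 3 UMIs of its markers and 0.1% of a cell's UMIs (2 UMIs for precursors). Not every gate marker and list gene is reported here by name. UMIs were summed per class and library (at least 20 cells), and each gate was compared with the mature OSN gate by edgeR 4.0.16 (R 4.3.3; TMM, filterByExpr, quasi-likelihood test, library as a block, Benjamini-Hochberg over 13915 genes, threshold 0.05). Its replicates are the 4 libraries, each of another age, without P21 for stromal cells. With the library as a block, p-values measure how far differences between gates vary from library to library. That spread was estimated over the sums of all gates together. Nothing in the labels says that cells of different classes vary independently within a library. DESeq2 1.42.0 was an alternative. Of 8 members, 7 passed the filter on low counts and Fosb did not. On simulated counts for horizontal basal against mature OSN sums, 78% of 200 genes changed 4-fold were recovered, with 3 false calls among 11159 genes. Apart from those 200 genes, all simulated sums shared the same expression profile, unlike the gates compared here. The changed genes were not drawn from those with the lowest counts, so these figures do not cover members with few UMIs.

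Ages were compared as ratios of CPM with exact conditional binomial intervals at 95%, for genes reaching 20 UMIs at P21 or P0. A count of 0 was read as up to 3 counts. Intervals and floors cover counting error only. Shares of cells used cells thinned to 1500 UMIs. The members, the 6 lists and the gates were chosen with earlier results of these data known. Members are always named, list genes where they passed, up to 4 a list and comparison by smallest p, and the 3 genes most like each member. The levels of Btg2, Dusp1, Zfp36, Hspa1a, Npas4, Arc, Egr2, Egr3, Nptx2, Nr4a1 and S100a5, and the named split genes, were added after their values were seen. So were the dissociation genes named as lower in horizontal basal cells.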

Additional observations from a re-analysis of the deposited data

Results flagged for a closer look

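In mature OSNs, the Ier2 level of the P21 library, 305.7 CPM, stood apart from the other 3 libraries (170.0 to 192 CPM) by more than Dixon's 95% critical value for 4 samples. It was the 1 such value among 32 combinations of member and class checked, and chance gives about 1 in 20.

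The P21 over P0 ratio of Jun lay on opposite sides of 1, with intervals that leave out 1, in ungated cells with a Tex15 UMI (1.33) and immature OSNs (1.22) on 1 side and mature OSNs (0.812) and horizontal basal cells (0.342) on the other. The ratio of Ier2 did so in mature OSNs (1.80) and horizontal basal cells (0.485). With 1 library per age, these differences between classes were not tested.

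Jun had 1151, 1110.4, 1387 and 1527 CPM at P0, P3, P7 and P21 in ungated cells with a Tex15 UMI, which no planned comparison used, above the 133 to 198 CPM of mature OSNs.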

How the results depend on the processing

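Of the members' fold changes under other settings, 315 kept direction and side of the threshold, 15 lost the call, 3 gained it and 5 changed sign; of the age ratios 171 stayed within their interval, 24 moved and 1 changed sign. The cause was not tested unless given here. Size factors by median of ratios moved all genes by a median of -0.18 (log2) in precursors and 0.11 in horizontal basal cells, which bears on the small Jun differences there. The 5 members called in precursors became 3 without P3, at the stricter gate and in a fit of those gates alone, where the filter on low counts left Atf3 untested each time, and Fos too in the first and the last. Leaving out each library gave 3 to 4 members in precursors, 2 in immature OSNs, 4 to 6 in horizontal basal cells and 5 to 6 in stromal cells. The 2 members called in immature OSNs became 1 at the stricter gate. Genes called between Fos-positive and Fos-negative mature OSNs, 3 as reported, became 1 with other size factors, 56 with no filter, 0 in DESeq2, 121 without a replicate block, 57 with all UMIs, 69 for at least 2 Fos UMIs, and 1 to 39 leaving out each library. For the Ier2 split, chosen after the data were seen, the 5 became 150 with no filter, 0 in DESeq2, 0 without a replicate block, 215 with all UMIs, and 2 to 12 leaving out each library. Members past 1.5-fold in mature OSNs, 2 against P0, were 1 against P3 and 1 against P7. The sign changed for Junb in precursors (-0.098 without P3, up to 0.53 without P7), Egr1 in precursors (0.45 without P0, down to -1.46 without P3) and Fos in stromal cells (-0.44 without P7, up to 0.26 without P21, -0.071 at the stricter gate and -0.013 without the deepest 2% of cells), all not called, and for Jund in immature OSNs against P3 (1.08). No paired analysis across ages was possible because each age has 1 library; the library served as the block instead. The secretory comparison was not run, for lack of cells. Depth limits Fos, Fosb, Egr1 and Atf3, whose sums rest on a few UMIs.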
